A study of Mus musculus with 2 samples.

Results

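Hox-cluster miRNAs are the miRNA genes that lie among the Hox genes, and they were taken here as every annotated miRNA gene between the outermost Hox genes of the 4 mouse Hox clusters. Of 2202 miRNA genes in the count tables, 7 met this rule. They are Mir10a, Mir10b, Mir196a-1, Mir196a-2, Mir196b and Mir615, and also Gm44463, a predicted miRNA gene of the HoxD cluster that the annotation leaves without a name. The libraries came from C2C12, a mouse myoblast line of the C3H strain that was set up from injured thigh muscle and was obtained from ATCC. There are 2 libraries, labelled as biological replicates of this 1 line, made from RNA below 30 nt. The labels give no treatment, culture stage, sex or age, so no conditions could be compared, and 1 cell line does not represent the range of muscle cells in an animal.

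Hox genes encode transcription factors that give cells their place along the body axis. Within each cluster they are ordered by paralog group, with low numbers used toward the head and high numbers toward the tail and in the outer limb. The miRNA genes between them sit at matching places in different clusters. miR-10 lies beside the group 4 genes, and miR-196 lies beside groups 9 and 10. In mouse embryos miR-196 is known from the posterior trunk and the hindlimb, and miR-10 from the trunk and spinal cord. Both families are known to repress Hox transcripts, in the manner of miRNAs, by pairing through bases 2 to 8 of the mature strand, called the seed. miR-615 comes from an intron of Hoxc5.

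The mature strands show which of these genes could act on the same targets. All strands are from RefSeq (GRCm38.p6), where 6 of the 7 genes were matched, with the seed in capitals:
miR-10a-5p: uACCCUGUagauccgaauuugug
miR-10b-5p: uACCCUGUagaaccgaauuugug
miR-196a-5p: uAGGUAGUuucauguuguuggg
miR-196b-5p: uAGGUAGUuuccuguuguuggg
miR-615-3p: uCCGAGCCugggucucccucuu
miR-615-5p: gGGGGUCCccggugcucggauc
The miR-10 strands share a seed and differ at 1 of 23 bases, written U12A for miR-10a against miR-10b with positions counted from 1 at the 5′ end. The miR-196 strands share another seed and differ at 1 of 22 bases, C12A for miR-196b against miR-196a. No mature strand of a miRNA outside the Hox clusters in the RefSeq table had the seed of a member, on either arm.

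Mir196a-1 in HoxB and Mir196a-2 in HoxC make the same mature strand, so their hairpins are shown with the shared 22 bases in capitals:
Mir196a-1 hairpin: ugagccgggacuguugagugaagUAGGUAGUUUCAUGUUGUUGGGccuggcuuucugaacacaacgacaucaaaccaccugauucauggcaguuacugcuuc
Mir196a-2 hairpin: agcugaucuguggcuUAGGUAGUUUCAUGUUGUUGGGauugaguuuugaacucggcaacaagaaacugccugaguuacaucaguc
A read of these bases alone has 2 places in the genome, and the tables list multi-mapping reads separately. If the gene counts omit such reads, the counts of both Mir196a genes are too low, and the split between HoxB and HoxC rests on reads that reach beyond the shared stretch or come from the other arm. This holds for every Mir196a value given here. The Mir196b hairpin, shown with both mature arms in capitals because the counts join them, shares no stretch of 20 bases with another miRNA gene:
Mir196b hairpin: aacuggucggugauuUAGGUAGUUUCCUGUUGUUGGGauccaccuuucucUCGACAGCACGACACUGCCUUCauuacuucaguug
Mir10a, Mir10b, Mir615 and Gm44463 share no such stretch either. This rule misses strands that differ at 1 inner base, as miR-10a-5p from miR-10b-5p and miR-196b-5p from miR-196a-5p. Each of these pairs has at most 11 shared bases in a row. Whether reads were assigned across such a pair was not tested.

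miR-196 is known in mouse to cut the Hoxb8 transcript through a near-perfect site. The best match in the annotated Hoxb8 transcripts (chromosome 11) is shown 5′ to 3′ as DNA with bases complementary to miR-196a-5p in capitals:
Hoxb8 site: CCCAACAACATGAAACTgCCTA
Of its 22 bases, 21 are complementary and the remaining 1 forms a G:U pair. The site is present in 1 of the 3 annotated transcripts, and no Hox mRNA was measured.

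On mm10 the genes lie close to Hox coding exons. Mir196b (ENSMUSG00000065443.1, chromosome 6, 52230081 to 52230165, minus strand) overlaps an exon of Hoxa9 and lies 2.34 kb from the last coding exon of Hoxa10. Mir196a-2 (ENSMUSG00000065488.2, chromosome 15, 102973350 to 102973434, plus strand) lies between Hoxc10 and Hoxc9, in an intron of a long annotated form of Hoxc5. Mir615 (ENSMUSG00000076010.1, plus strand of chromosome 15, 103014910 to 103015001) is inside an intron of Hoxc5, 0.227 kb from its last coding exon. Mir10a (ENSMUSG00000065519.1, chromosome 11, 96317165 to 96317274, plus strand) lies 2.76 kb from the last coding exon of Hoxb4, and Mir196a-1 (ENSMUSG00000065546.1, chromosome 11, 96265164 to 96265265, plus strand) lies 9.36 kb from that of Hoxb9. Neither has an annotated host gene. Mir10b (ENSMUSG00000065500.3, plus strand of chromosome 2, 74726070 to 74726137) is inside introns of Hoxd4 and Hoxd3, 2.12 kb from the last coding exon of Hoxd4. Each of these 6 genes is transcribed in the direction of the Hox genes around it. Gm44463 (ENSMUSG00000104570.1, chromosome 2, 74701006 to 74701142, minus strand), 1.59 kb from Hoxd9, runs against them. By the nearest Hox gene, Mir10a, Mir10b and Mir615 were called anterior (paralog groups 1 to 8), and Mir196a-1, Mir196a-2, Mir196b and Gm44463 posterior (groups 9 to 13).

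Replicate 2 held 15025315 reads and replicate 1 held 27661907 reads that lay on miRNA genes in their own direction, and levels are counts per 1000000 of these reads (CPM). The most abundant gene, Mir21a, took 53.5% of the total in replicate 2 and 23.1% in replicate 1, which leaves a smaller part of the CPM scale to other genes in replicate 2. Of 9 skeletal muscle markers, 3 were detected, meaning that each library had a CPM of 1 or more, with a summed level of 1051 and 2653 CPM, nearly all from Mir206, while Mir1a-1, Mir133a-1 and Mir133a-2 had no read. The Mir1a and Mir133a genes have near-identical copies, so their counts set no limit. Summed levels were 126 and 220 CPM for 5 blood markers (2 detected), 134 and 213 for endothelial Mir126a, 17.2 and 21.7 for 6 epithelial markers (3 detected), and 1.26 and 3.90 for hepatocyte Mir122. Neural and pluripotent markers summed to at most 0.904 CPM, with none detected. The neural markers are copies of Mir124a and of Mir9, so reads shared between copies may be missing and their counts set no limit either. Both libraries are of 1 cell line, so the marker levels were not read as other cell types. Any link of them to the Hox miRNA levels was not tested. In bulk RNA, fewer cells that make a miRNA and less of it per cell cannot be told apart.

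The Hox miRNA genes together took 0.575% of the counted reads in replicate 2 and 1.22% in replicate 1, a mean of 8953 ± 4533 CPM (SD, n = 2). Of the 7 genes, 5 were detected by the same measure, against 14.5% of all 2202 genes. Mir196b, Mir196a-2 and Mir615 reached a CPM of 1000 in both, against 2.82% of all genes. These are the members of HoxA and HoxC. Mir10a and Mir196a-1, the members of HoxB, were low, and those of HoxD were below a CPM of 1.

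Mir196b, the posterior gene of HoxA, was the highest, with 51969 reads or 3459 CPM in replicate 2 and 205342 reads or 7423 CPM in replicate 1. Its mean of 5441 ± 2803 CPM (SD, n = 2) ranked 29 among all genes. The posterior Mir196a-2 of HoxC had 16515 reads or 1099 CPM in replicate 2 and 73784 reads or 2667 CPM in replicate 1, averaging 1883 ± 1109 CPM (SD, n = 2), rank 54. Mir196b was above Mir196a-2 in both libraries, and their ranges did not overlap. The ratio of Mir196b to Mir196a-2 reads was 3.15 in replicate 2 (exact 95% interval 3.09 to 3.20) and 2.78 in replicate 1 (2.76 to 2.81). Since the Mir196a-2 count may be too low, this ratio may be too high.

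Mir615, the anterior gene of HoxC, had 17669 reads or 1176 CPM in replicate 2 and 56498 reads or 2042 CPM in replicate 1, averaging 1609 ± 613 CPM (SD, n = 2), rank 57. Its level did not stand apart from that of its cluster neighbour. The ratio of Mir196a-2 to Mir615 reads was 0.935 in replicate 2 (exact 95% interval 0.915 to 0.955) and 1.31 in replicate 1 (1.29 to 1.32), so their order changed with the library. The anterior and the posterior gene of HoxC were thus both abundant.

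Mir10a, the anterior gene of HoxB, had 112 reads or 7.45 CPM in replicate 2 and 411 reads or 14.9 CPM in replicate 1, averaging 11.2 ± 5.24 CPM (SD, n = 2), rank 209. The posterior gene of the same cluster, Mir196a-1, had 97 reads or 6.46 CPM in replicate 2 and 269 reads or 9.72 CPM in replicate 1, averaging 8.09 ± 2.31 CPM (SD, n = 2), rank 220. The ranges of the HoxB genes overlapped. The ratio of Mir10a to Mir196a-1 reads was 1.15 in replicate 2 (exact 95% interval 0.872 to 1.53), where it was not resolved from 1 at this depth, and 1.53 in replicate 1 (1.31 to 1.79).

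Between the abundant and the low members lay a wide gap. Mir615 had 158 times the reads of Mir10a in replicate 2 (exact 95% interval 131 to 192) and 137 times in replicate 1 (125 to 152). Mir196b had 464 times the reads of Mir10a in replicate 2 (386 to 564) and 499.6 times in replicate 1 (454 to 552). Mir196a-2 had 170.3 times the reads of its copy Mir196a-1 in replicate 2 (139 to 210.1) and 274 times in replicate 1 (243 to 310.3), with the limit on shared reads given above.

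Mir10b, the HoxD counterpart of Mir10a, had 4 reads in replicate 2, against 9 in replicate 1. These are 0.266 CPM (exact 95% interval 0.0725 to 0.682) and 0.325 CPM (0.149 to 0.618), rank 508. The interval of replicate 1 lies within that of replicate 2. The ratio of Mir10a to Mir10b reads was 28.0 in replicate 2 (10.6 to 105) and 45.7 in replicate 1 (23.8 to 101). Both mature arms of Mir10b had no exact match in another gene among the annotated transcripts. That check does not cover miR-10a reads assigned with a mismatch, since miR-10a-5p differs from miR-10b-5p at 1 base. Gm44463 had no read in either library, as did 63.5% of all genes. A fixed limit of 3 reads was set for a count of 0, that is 0.200 CPM for replicate 2 and 0.108 CPM for replicate 1. The exact 95% intervals used for Mir10b reach higher for Gm44463, to 0.246 CPM in replicate 2 and 0.133 CPM in replicate 1. No member had a read on the opposite strand.

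**Figure D1:**
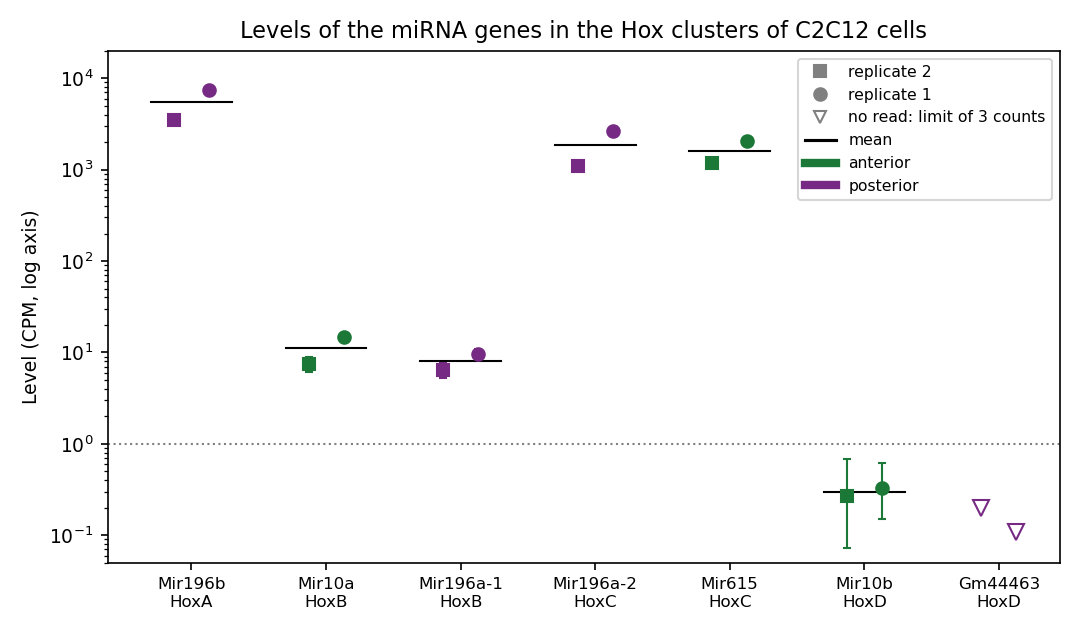
Levels of the 7 Hox-cluster miRNA genes on a log axis in CPM, ordered by cluster, with replicate 2 as squares and replicate 1 as circles, exact 95% counting intervals as bars, and the mean as a line. Open triangles mark the fixed limit of 3 reads set for a count of 0, and the dotted line a CPM of 1. The 3 genes of HoxA and HoxC lie between 1099 and 7423 CPM, and the other genes below 15 CPM, whether anterior (green) or posterior (purple).

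Described over 7 genes and without a test, the levels differed more by cluster than by place within a cluster. HoxA took 60.2% of the Hox miRNA reads in replicate 2 (exact 95% interval 59.8 to 60.5) and 61.1% in replicate 1 (60.9 to 61.2). HoxC took 39.6% (39.3 to 39.9) and 38.7% (38.6 to 38.9). HoxB took 0.242% (0.210 to 0.277) and 0.202% (0.187 to 0.218), and HoxD 0.00463% (0.00126 to 0.0119) and 0.00268% (0.00122 to 0.00508). These shares do not depend on the library totals. The split of the Mir196a genes between HoxB and HoxC is uncertain, and if their counts are too low the HoxA share is too high. Without them Mir196b took 76.4%, Mir615 23.4% and Mir10a 0.159% of the remaining reads, but HoxA, HoxB and HoxC then hold a single gene each, so the likeness of levels within HoxB and within HoxC rests on the Mir196a counts.

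By position, the anterior genes had a summed level of 1184 CPM for replicate 2 and 2058 CPM for replicate 1, with a mean of 1621 ± 618 CPM (SD, n = 2). The posterior genes had 4564 and 10100.4 CPM, a mean of 7332 ± 3915 CPM (SD, n = 2). The anterior share of the Hox miRNA reads was 20.6% in replicate 2 (exact 95% interval 20.3 to 20.9) and 16.9% in replicate 1 (16.8 to 17.1), and the posterior share 79.4% and 83.1%. Both Mir196a genes are posterior, so if their counts are too low, the posterior level is too low and the anterior share too high. The intervals do not cover this. The anterior sum was almost wholly Mir615, since Mir10a and Mir10b together took 0.134% and 0.125% of the Hox miRNA reads. With Mir615 counted as anterior, the excess of the posterior genes therefore rests on the HoxA gene Mir196b and on the HoxC gene Mir196a-2. Each position held both abundant and low genes.

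**Figure D2:**
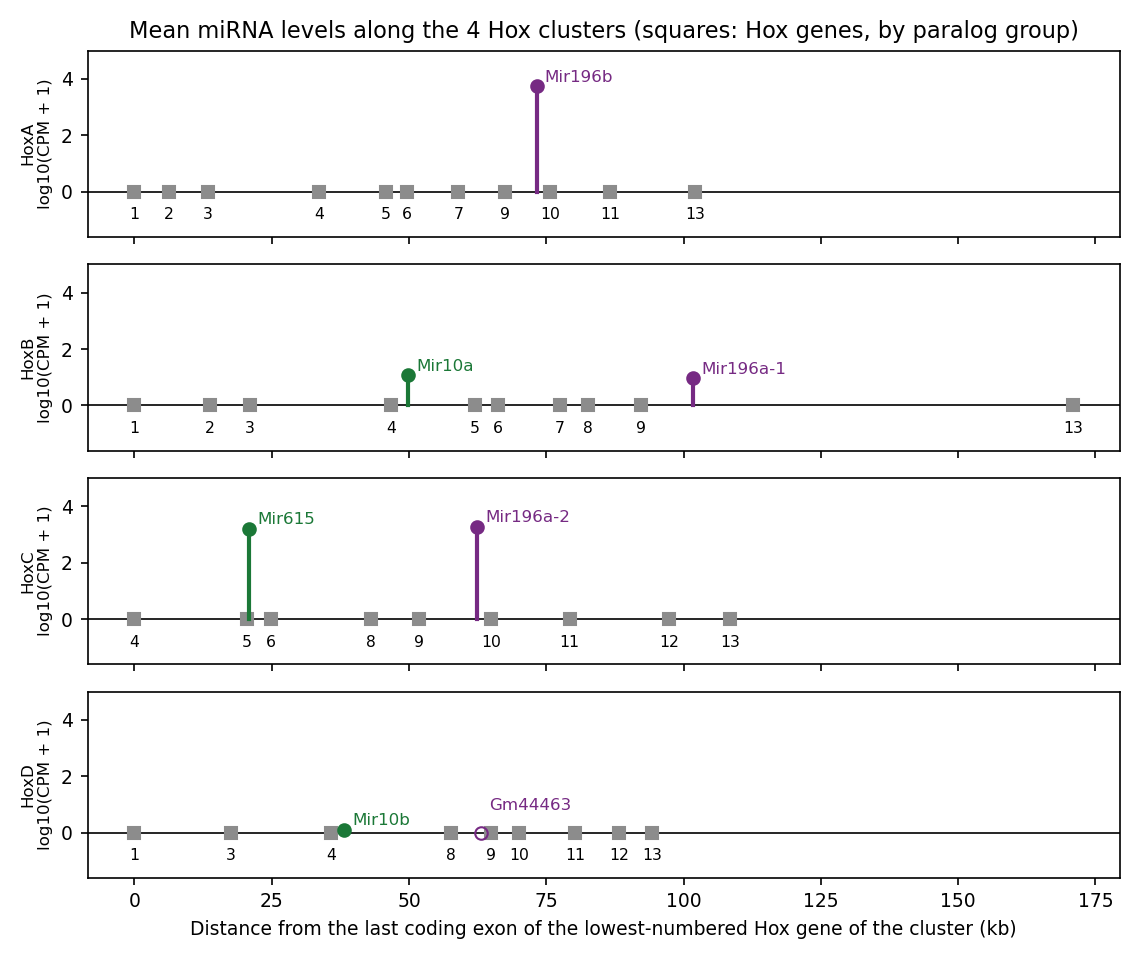
Mean level, as log10(CPM + 1), of each miRNA gene along the 4 Hox clusters, with the distance in kb from the last coding exon of the lowest-numbered Hox gene. Grey squares are Hox genes with their paralog group, green stems anterior and purple stems posterior miRNA genes, and the open circle is Gm44463 with no read. Stems of similar height are those within a cluster, as for Mir615 and Mir196a-2 in HoxC (1609 and 1883 CPM) and Mir10a and Mir196a-1 in HoxB (11.2 and 8.09 CPM).

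Within each seed family a single gene held most of the reads counted on genes. Mir10a held 96.6% of the Mir10a and Mir10b reads in replicate 2 (exact 95% interval 91.4 to 99.1) and 97.9% in replicate 1 (96.0 to 99.0). Mir196b held 75.8% of the miR-196 family reads in replicate 2 (75.5 to 76.1) and 73.5% in replicate 1 (73.3 to 73.7). Since the Mir196a counts may be too low, this share may be too high, and these counts cannot show which gene leads the family. The miR-196 family summed to 7332 ± 3915 CPM and the miR-10 pair to 11.5 ± 5.28 CPM (SD, n = 2). As a read of this assay covers a whole mature miRNA, counts were compared without division by hairpin length, and per 100 bases of hairpin the order of the members was the same, from 6401 CPM for Mir196b to 0.435 CPM for Mir10b.

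The low miR-10 level did not extend to its relatives outside the Hox clusters. Mir99a, Mir99b and Mir100 belong to the same ancient family as miR-10, and their mature strands are shown to compare them with miR-10a-5p above:
miR-99a-5p: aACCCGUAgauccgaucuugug
miR-99b-5p: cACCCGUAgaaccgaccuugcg
miR-100-5p: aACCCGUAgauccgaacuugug
Their seed differs from that of miR-10, although miR-100-5p shares a stretch of 11 bases and miR-99a-5p one of 10 bases with miR-10a-5p. For miR-99b-5p the longest such stretch is 5 bases. Against the 11.2 ± 5.24 CPM of Mir10a, Mir99a stood at 13987 ± 7394 CPM, Mir99b at 13513 ± 5779 CPM and Mir100 at 7252 ± 4054 CPM (SD, n = 2 for each). The ratio of Mir100 to Mir10a reads was 588 in replicate 2 and 681 in replicate 1. Each relative was above the Mir10a level in both libraries.

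**Figure D3:**
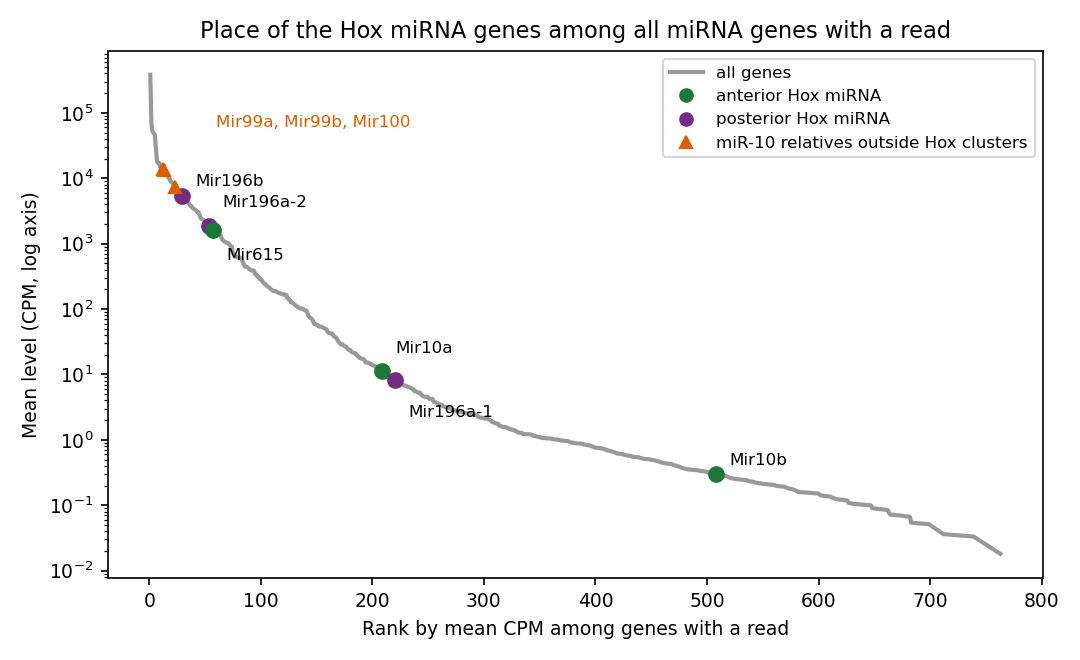
Mean level on a log axis in CPM against rank for all miRNA genes with a read (grey line). Green and purple circles are the anterior and posterior Hox miRNA genes, and triangles the miR-10 relatives Mir99a, Mir99b and Mir100. Mir196b, Mir196a-2 and Mir615 hold ranks 29, 54 and 57, after the relatives at ranks 12, 13 and 23, while Mir10a, Mir196a-1 and Mir10b hold ranks 209, 220 and 508.

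On the closer side of HoxA, HoxB and HoxC, the nearest miRNA gene outside with at least 10 reads had a level unlike those inside. Mir148a, 886 kb from HoxA, had 119 ± 3.29 CPM, below the 5441 CPM of Mir196b. Mir152, 482 kb from HoxB, had 168 ± 7.83 CPM, above the 11.2 and 8.09 CPM of the HoxB members. Mir148b, 248 kb from HoxC, had 202 ± 27.6 CPM, below both HoxC members (SD, n = 2 for each). On the other sides of these clusters and on both sides of HoxD, the nearest such genes lay 1552 to 19011 kb away, and of these Mir130a, 9976 kb from HoxD, was the highest at 10297 ± 5143 CPM (SD, n = 2). The others had means of 15.2 CPM (Mir8112, HoxA), 1.06 CPM (Mir378b, HoxB), 5.23 CPM (Mir1941, HoxC) and 1.59 CPM (Mir7224, HoxD), within the range of the low members or near it. Mir7224, 6993 kb away, was on the closer side of HoxD and was low, as were the HoxD members.

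Genes with the most similar pair of levels were named by the distance in log2(CPM + 1) over the 2 libraries. They were Mirlet7d (distance 0.19) and Mir149 (0.21) for Mir196b, Mir484 (0.08) and Mir206 (0.11) for Mir196a-2, Mirlet7f-2 (0.23) and Mir107 (0.31) for Mir615, and Mir3058 (0.03) and Mir669c (0.20) for Mir10a. Mir206, specific to skeletal muscle, stood at 1028 CPM (replicate 2) and 2559 CPM (replicate 1), so Mir196a-2 was as abundant as this muscle miRNA. With 2 libraries such likeness is one of level only.

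Replicate 2 was set against replicate 1 after scaling the libraries by trimmed means (TMM), which shifts all log2 ratios up by 0.90 relative to library totals. Of the 6 members with at least 10 reads, 3 passed a two-sided exact binomial test of replicate 2 against replicate 1 at an adjusted p of 0.05, against 41.5% of the 556 genes tested, a background near the share among the members. Of the members, 1 was higher and 2 were lower in replicate 2, against 24.6% and 16.9% of all genes tested. Mir196b was lower in replicate 2 with a log2 ratio of -0.20 (counting SE 0.007; adjusted p = 1.46e-186, exact binomial test), and Mir196a-2 with one of -0.38 (counting SE 0.012; adjusted p = 1.85e-217, exact binomial test). Both were lower under every scaling tried. Mir615 was higher in replicate 2 by 0.10 (counting SE 0.012; adjusted p = 2.81e-15, exact binomial test), but by library totals it was lower, with a log2 ratio of -0.80, and by totals without Mir21a with one of -0.069. This test compares the libraries, not conditions, and knows only counting noise.

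Mir10a had a log2 ratio of -0.09 (counting SE 0.15; adjusted p = 0.748, exact binomial test), Mir196a-1 one of 0.31 (counting SE 0.17; adjusted p = 0.164) and Mir10b one of 0.70 (counting SE 0.83; adjusted p = 0.691), while by library totals Mir10a stood at -0.99, Mir196a-1 at -0.59 and Mir10b at -0.20. Over the 6 members the median log2 ratio was 0.004, beside 0.09 over all 556 genes. The ratios of the 4 members with more reads did not stand out from those of other genes. Over the 210 genes whose mean CPM was 10 or more the SD of the log2 ratios was 0.84, and 135 of them had a larger absolute ratio than Mir196b, 95 a larger one than Mir196a-2, 170 than Mir615 and 175 than Mir10a.

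**Figure D4:**
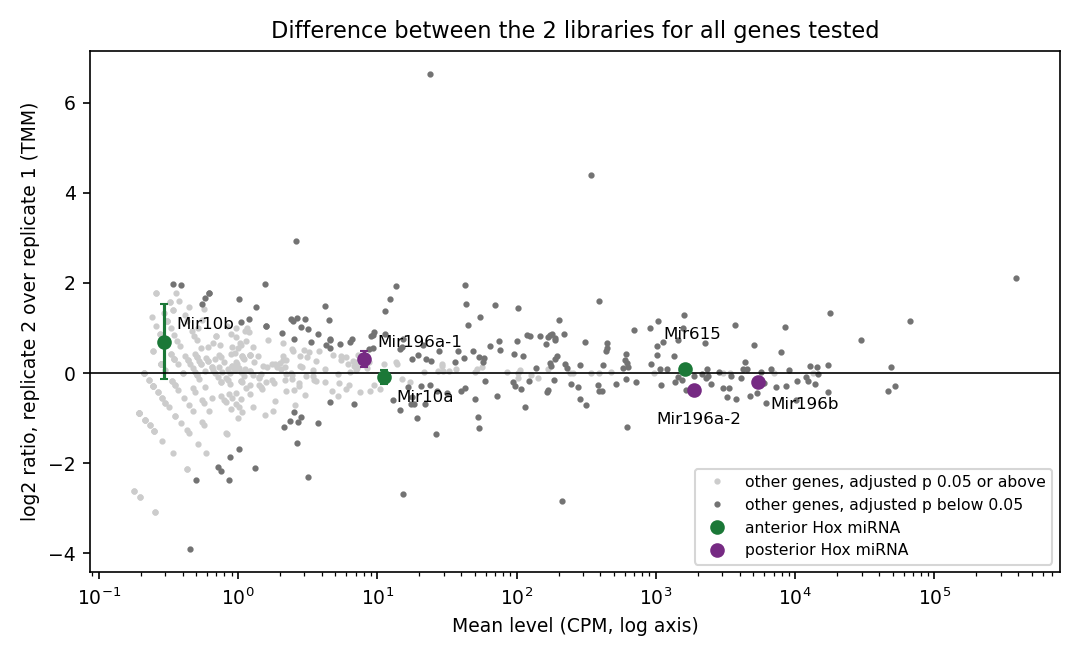
Log2 ratio of replicate 2 over replicate 1 after TMM scaling against mean level in CPM (log axis) for the 556 genes tested. Dark grey points passed the exact binomial test and light grey points did not, and the Hox miRNA genes are green (anterior) or purple (posterior) with their counting SE. The 4 members whose mean CPM was 10 or more lie between -0.38 and 0.10.

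The makeup of the counted Hox miRNA reads shifted slightly, whatever the scaling. The odds of an anterior against a posterior read were 1.27 times as high in replicate 2 as in replicate 1 (exact 95% interval 1.25 to 1.30), and those of a Mir196b read against a Mir196a read 1.13 times as high (1.11 to 1.15). The odds of a Mir10a against a Mir10b read, at 0.614 times (0.167 to 2.78), and of a miR-10 read against a Mir615 read, at 0.883 times (0.712 to 1.09), were not resolved from 1 at this depth. The intervals cover counting error only. Multi-mapping reads made up 22.8% of all reads in replicate 2 and 33.4% in replicate 1. Any part of the Mir196a reads that is missing may therefore differ between the libraries. Its effect on the odds ratios that include Mir196a reads was not tested.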

How the data were processed

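Small RNA was sequenced from 2 C2C12 libraries. The deposited tables hold read counts per miRNA gene, on mm10 with GENCODE M21 per the deposited readme files. Their columns were read, from the values, as either strand, the gene's strand and the opposite strand. The labels link a protocol for adapter trimming, and which aligner and counter were run is not given in the sources used here. Rows that name no gene (unmapped, multi-mapping, no gene, ambiguous) held 38.8% (replicate 2) and 49.7% (replicate 1) of the reads and stayed out of totals and tests. Counts join the arms of a hairpin.

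All 2202 identifiers matched GENCODE M21. Same-strand counts were used, per 1000000 same-strand reads (CPM). Hairpins sharing at least 20 bases counted as near-identical copies. The libraries were scaled by TMM in edgeR 4.0.16 under R 4.3.3, and genes with at least 10 counts were tested with an exact binomial test (scipy 1.17.1), Benjamini-Hochberg adjusted over all 556. Log2 ratios carry a prior count of 0.5. Shares, levels and ratios within a library carry exact (Clopper-Pearson) 95% intervals, and odds ratios exact conditional ones, for counting error only, since amplified reads are not independent molecules. Replicates are biological per the labels. DESeq2 1.42.0 size factors, other totals, filters, strands and single libraries were alternatives.

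The members, lists and tests were chosen with earlier results of these data known. The genes named are the members, miRNAs with a member's seed, Mir99a, Mir99b, Mir100, the nearest genes outside the clusters, the 2 genes closest in level to each member with a mean CPM of at least 10, Mir21a and the cell type markers. Of the markers, Mir292a was not matched.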

Additional observations from a re-analysis of the deposited data

Results flagged for a closer look

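The row of multi-mapping reads, which was not added to the levels, held 5599235 reads in replicate 2 and 18382947 in replicate 1, a signal outside the gene counts. How many of them are miR-196a reads was not tested, since the tables do not divide this row by gene. No control libraries were analysed here.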

How the results depend on the processing

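The choice of total moved the levels most. Without Mir21a in the totals the summed Hox miRNA level was 14083 CPM, the anterior level 2610 and the posterior level 11473 CPM, and per all reads of the tables these were 4813, 879 and 3934 CPM. With TMM the summed level was 8377 ± 751 CPM (SD, n = 2). The single libraries gave 5748 to 12158 CPM for the summed, 1184 to 2058 for the anterior and 4564 to 10100.4 CPM for the posterior level, 16.9% to 20.6% for the anterior share and 96.6% to 97.9% for Mir10a among the Mir10a and Mir10b reads. Without the near-identical copies the anterior share was 23.6% and the anterior odds ratio 1.23, and per hairpin base the Mir10a share was 95.6%. Leaving out these copies removes posterior reads, so this share does not correct for Mir196a reads that may be missing. By library totals 5 of 6 members were called, all lower in replicate 2, beside 330 of the 556 genes tested, 304 of them lower. There Mir615 had a log2 ratio of -0.80 and Mir196a-1 one of -0.59, and without Mir21a in the totals Mir615 had one of -0.069. By the exact binomial test with TMM, 0 members were called and at least 2-fold apart, while 3 had an unadjusted p below 0.05, and 62 of all genes were called and 2-fold apart. DESeq2 size factors called 3 of 6 members, beside 231 of the 556 genes tested. At a CPM of 10 in both libraries, 3 members were detected in place of 5. The low counts of Mir10b and Gm44463 limit their precision. No paired analysis was possible because there is only 1 group.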
